A study of Homo sapiens with 8 samples.

Results

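HIF-1β binding was examined at the genes of upper glycolysis and of its PFKFB regulators, which are GPI, PFKL, PFKP, PFKM, PFKFB3, PFKFB4, ALDOA and ALDOC. They are 8 of the 20136 protein-coding genes of the GENCODE 44 annotation on GRCh37 (hg19), chosen by name, and every peak that overlapped the gene body extended by 25 kb on each side was assigned to the gene. HIF-1β, the subunit that both HIF-1α and HIF-2α need in order to bind DNA, was immunoprecipitated and the bound DNA sequenced (ChIP-seq) in PC3 (prostate cancer), T47D (breast cancer), A549 (lung cancer) and HCT-116 (colorectal cancer) cells. Each line gave 2 libraries, numbered 1 and 2 in PC3 and T47D and 2 and 3 in A549 and HCT-116, and all 8 were from cells held at 0.5% oxygen for 16 h. No normoxic or input library was analysed here, so the values describe where HIF-1β lay in hypoxic cells and not what hypoxia changed. Each is an established cell line that stands for 1 tumour. Its identity was not checked here because peak lists hold no expression markers. The study's methods report STR genotyping for lines that did not come directly from a certified source. Nothing in the labels says whether replicates were separate cultures. The p-values below therefore measure only the spread between these libraries.

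In upper glycolysis, glucose-6-phosphate isomerase (GPI) makes the fructose 6-phosphate that phosphofructokinase-1 then commits to glycolysis, and aldolase splits the product into triose phosphates. Phosphofructokinase-1 has a liver (PFKL), a platelet (PFKP) and a muscle (PFKM) subunit, and aldolase has forms that include ALDOA, the ubiquitous and muscle form, and ALDOC, known from brain. PFKFB3 and PFKFB4 are bifunctional enzymes that make and break down fructose 2,6-bisphosphate, the strong activator of phosphofructokinase-1. Many glycolytic genes are known HIF targets, bound at short sequences whose core is ACGTG or GCGTG.

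The lists of peaks held 1042 to 3790 peaks per library. A peak carries a score with no stated unit, of at least 50 in every list and held at 3100 for the strongest peaks of several lists, so peaks are given by their rank within their own library. A rank share is the percentage of the library's peaks that rank at or above the peak, and a small share means a strong peak. The lists differ in length by more than 3 times, hold no reads and leave sequencing depth unknown. A site is a region where peaks of both replicates of a line overlapped by at least 1 bp. Distances run from the middle of a peak or site to the start of the MANE Select transcript, the annotation's main transcript, and are negative upstream.

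The sequences at 7 of the 8 genes are shown because they hold the copy of the HIF core nearest to the middle of the bases shared by the best peaks of the libraries with a peak at the gene's most widely bound region, which are 6 libraries at PFKFB3 and all 8 at the other genes. Each is 120 bases of GRCh37 on the strand of the gene, 5′ to 3′, and the capitals mark ACGTG and GCGTG read on either strand, so that CACGT and CACGC are copies on the opposite strand and overlapping copies count separately.
GPI, chr19:34850305-34850424, plus strand: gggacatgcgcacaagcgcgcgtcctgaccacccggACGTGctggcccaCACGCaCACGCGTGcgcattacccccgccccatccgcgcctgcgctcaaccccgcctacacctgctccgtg
PFKL, chr21:45720321-45720440, plus strand: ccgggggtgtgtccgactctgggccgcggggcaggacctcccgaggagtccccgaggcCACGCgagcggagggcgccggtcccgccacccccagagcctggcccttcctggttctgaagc
PFKP, chr10:3133240-3133359, plus strand: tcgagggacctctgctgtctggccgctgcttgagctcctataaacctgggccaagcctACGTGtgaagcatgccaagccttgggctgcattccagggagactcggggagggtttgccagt
PFKFB3, chr10:6243557-6243676, plus strand: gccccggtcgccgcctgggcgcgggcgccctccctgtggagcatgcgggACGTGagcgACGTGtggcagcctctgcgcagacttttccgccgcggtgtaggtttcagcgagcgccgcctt
PFKFB4, chr3:48594576-48594695, minus strand: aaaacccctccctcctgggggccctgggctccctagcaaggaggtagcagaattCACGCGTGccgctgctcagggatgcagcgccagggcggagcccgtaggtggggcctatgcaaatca
ALDOA, chr16:30076825-30076944, plus strand: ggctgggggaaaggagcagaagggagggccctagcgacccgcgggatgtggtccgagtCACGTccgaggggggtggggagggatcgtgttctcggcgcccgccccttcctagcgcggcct
ALDOC, chr17:26903959-26904078, minus strand: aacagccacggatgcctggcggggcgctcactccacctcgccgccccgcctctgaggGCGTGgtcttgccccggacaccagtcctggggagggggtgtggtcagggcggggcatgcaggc
Since each window was centred on a copy, the presence of 1 copy in it is no finding. The GPI window held 4 copies, and those of PFKFB3 and PFKFB4 held 2 each. Among all 3837 regions bound in any line, 49.8% had a copy in their central 120 bp. Windows were also centred on the copy nearest to the middle of each of the 3705 whole regions that held any. Of these, 33.1% had 2 or more copies and 3.86% had 4 or more. The printed windows instead used the middle of the bases shared by the best peaks, so the centring was alike but not the same. At PFKFB3 both copies lay on the sense strand, at -1287 and -1278 bp from the main start, whereas at PFKFB4 they were the overlapping opposite-strand copies of CACGCGTG. None of the 7 windows had CACAG, which is found beside the core in some HIF-responsive elements, 5 to 12 bases after a copy on the same strand, a pairing present in 1.82% of the central 120 bp windows. A match is a description of the letters and not a bound site.

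HIF-1β sites lay within 25 kb of 7 of the 8 genes in PC3 cells, 7 in T47D, 7 in A549 and 6 in HCT-116 cells. In the same window, a site was found for 7.08% of all protein-coding genes in PC3 cells, 16% in T47D, 6.02% in A549 and 14.2% in HCT-116 cells. A site in all 4 lines was found for 6 of the 8 genes (GPI, PFKL, PFKP, PFKFB4, ALDOA and ALDOC), against 2.46% of all protein-coding genes. PFKM had no site and no peak in any line. PFKFB3 had a site in PC3, T47D and A549 cells and none in HCT-116 cells. Windows ran from 53834 bp at ALDOC to 159711 bp at PFKFB3, with a median over all genes of 77217 bp. ALDOA and ALDOC had among the shorter windows, with shorter ones at only 17.7% and 11% of genes. The 8 genes had 34 sites in all when each line was counted, which fell in 12 regions, and 22 of the 34 sites had their middle within 2 kb of the gene's own main start. Over all 9977 pairs of a protein-coding gene and a site of a line within its window, 30.9% did.

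**Figure D1:**
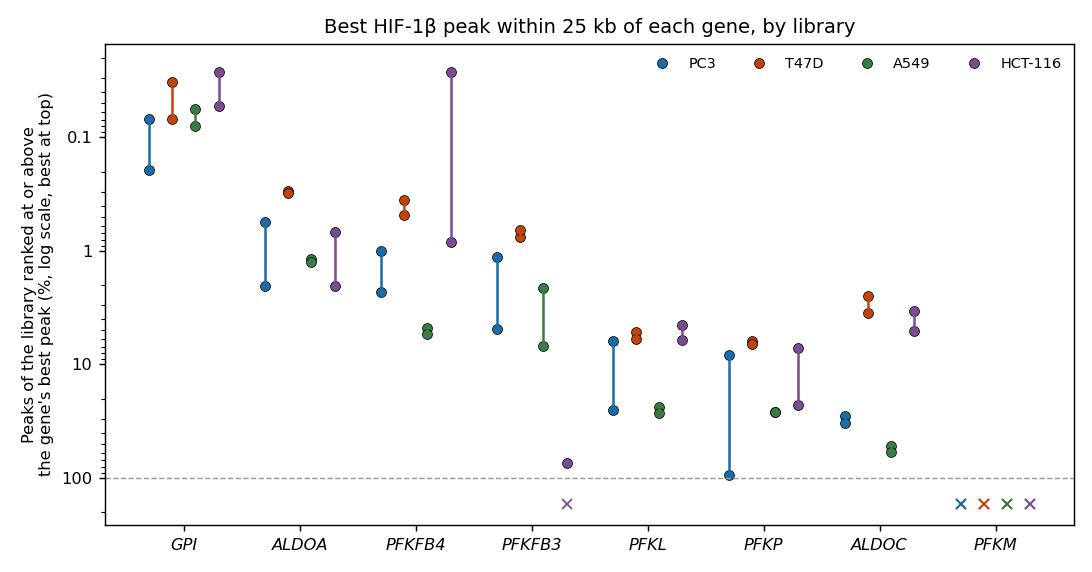
The strongest HIF-1β peak within 25 kb of each of the 8 genes, with the rank share in percent on an inverted log scale (strongest at the top) and 1 point per library, joined within a line. Crosses mark libraries with no peak and the dashed line marks 100%. GPI held the strongest position in all 8 libraries, level with PFKFB4 in HCT-116 replicate 2, ALDOC shares in T47D and HCT-116 lay apart from those in PC3 and A549, and PFKM had crosses only.

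The first step of the group, isomerisation by GPI, had the strongest binding. The GPI peak ranked 2 of 1042 and 2 of 2891 in PC3, 1 of 3061 and 2 of 2910 in T47D, 1 of 1768 and 1 of 1270 in A549, and 1 of 3790 and 1 of 1913 in HCT-116 cells. It was the strongest peak of the 8 genes in every library, level with that of PFKFB4 in HCT-116 replicate 2, and its rank shares ran from 0.0264% to 0.192%, with overlap between the lines. Its score was 3100 in 7 of the 8 libraries. That score was shared by 13 peaks in HCT-116 replicate 2 and by 5 in T47D replicate 2. It was shared by 3 each in PC3 replicate 2, T47D replicate 1 and HCT-116 replicate 3. Order among the very strongest peaks cannot be read in these libraries. The region, chr19:34849476-34851289, lay 5718 bp upstream of the main start. It covered 3 annotated starts of other GPI transcripts, the nearest 2 bp from its middle, and the start of the lncRNA ENSG00000267219. The 16 copies of the core in this region compare with a median of 5 in the 3837 bound regions when a window of equal length was taken at each, and 1.67% had as many or more. At least 1 copy was present in 97.7% of those windows, and in 95.5% to 99.7% of windows of the lengths of the other regions below. A weaker region at the start of PDCD2L, 39352 bp from the GPI start, was a site in HCT-116 cells only, with ranks of 1721 and 1321, and had a single peak in T47D replicate 1.

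The phosphofructokinase-1 subunits were unlike each other. PFKL was bound across its start in all 4 lines, PFKP was bound near its start and inside its introns, and PFKM had no peak.

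PFKL peaks at the start ranked no lower than 423 in any library. Their rank shares were 25.2% and 6.19% in PC3, 5.23% and 6.01% in T47D, 23.9% and 27.1% in A549, and 4.54% and 6.06% in HCT-116 cells. T47D and HCT-116 cells overlapped each other and lay below both A549 libraries, while the PC3 replicates spread over the range of the others. The region, chr21:45718941-45721329, covered the main start with its middle 199 bp downstream in intron 1. It held 13 copies of the core, a number that 9.28% of windows of its length reached, and 2 of them had CACAG at the spacing searched, a pairing present in 10.2% of such windows. A second region at the start of CFAP410 had peaks near the end of the lists of T47D replicate 2 (rank 2868) and HCT-116 replicate 2 (rank 3688) and was a site in neither.

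PFKP had 3 bound regions. The first, chr10:3109193-3111986, covered the main start with its middle in intron 1, and the second, chr10:3132615-3134309, lay in intron 2, 23722 bp from the start. Near the start, peaks ranked 992 and 239 in PC3, 189 and 193 in T47D, and 274 and 439 in HCT-116 cells, while A549 cells had 1 peak, ranked 1065 of 1270, in replicate 3. In intron 2 the ranks were 996 and 617 in PC3, 748 and 450 in T47D, 468 and 331 in A549, and 386 and 561 in HCT-116 cells. The intron 2 region was therefore the one bound in all 4 lines, and the peak near the start ranked above it in all 6 libraries of PC3, T47D and HCT-116 cells. The remaining region in intron 8, chr10:3149105-3150319, was a site in A549 cells alone, with ranks of 683 and 332. The region near the start held 11 copies of the core, and windows of its length had as many or more in 22.3% of bound regions. The intron 2 region held 2 and the intron 8 region 3, numbers that 89% and 67.9% of windows reached. PC3 replicate 1, the shortest list, had both of its PFKP peaks among its weakest, at rank shares of 95.2% and 95.6%, and only 34.7% of the merged PC3 site near the start was covered by both replicates, the lowest of the 34 sites.

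PFKM, from 48498922 to 48540187 on chromosome 12, had no peak within 25 kb in any of the 8 libraries. The nearest peak was in T47D replicate 1, 82673 bp from the gene and ranked 2583 of 3061. The nearest site of a line lay 291228 bp away in HCT-116 cells, 569745 bp in T47D cells, 833178 bp in A549 cells and 2871562 bp in PC3 cells. The PFKM window was longer than that of 61.1% of genes. A weak peak below the score limit of the lists was not detectable here.

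**Figure D2:**
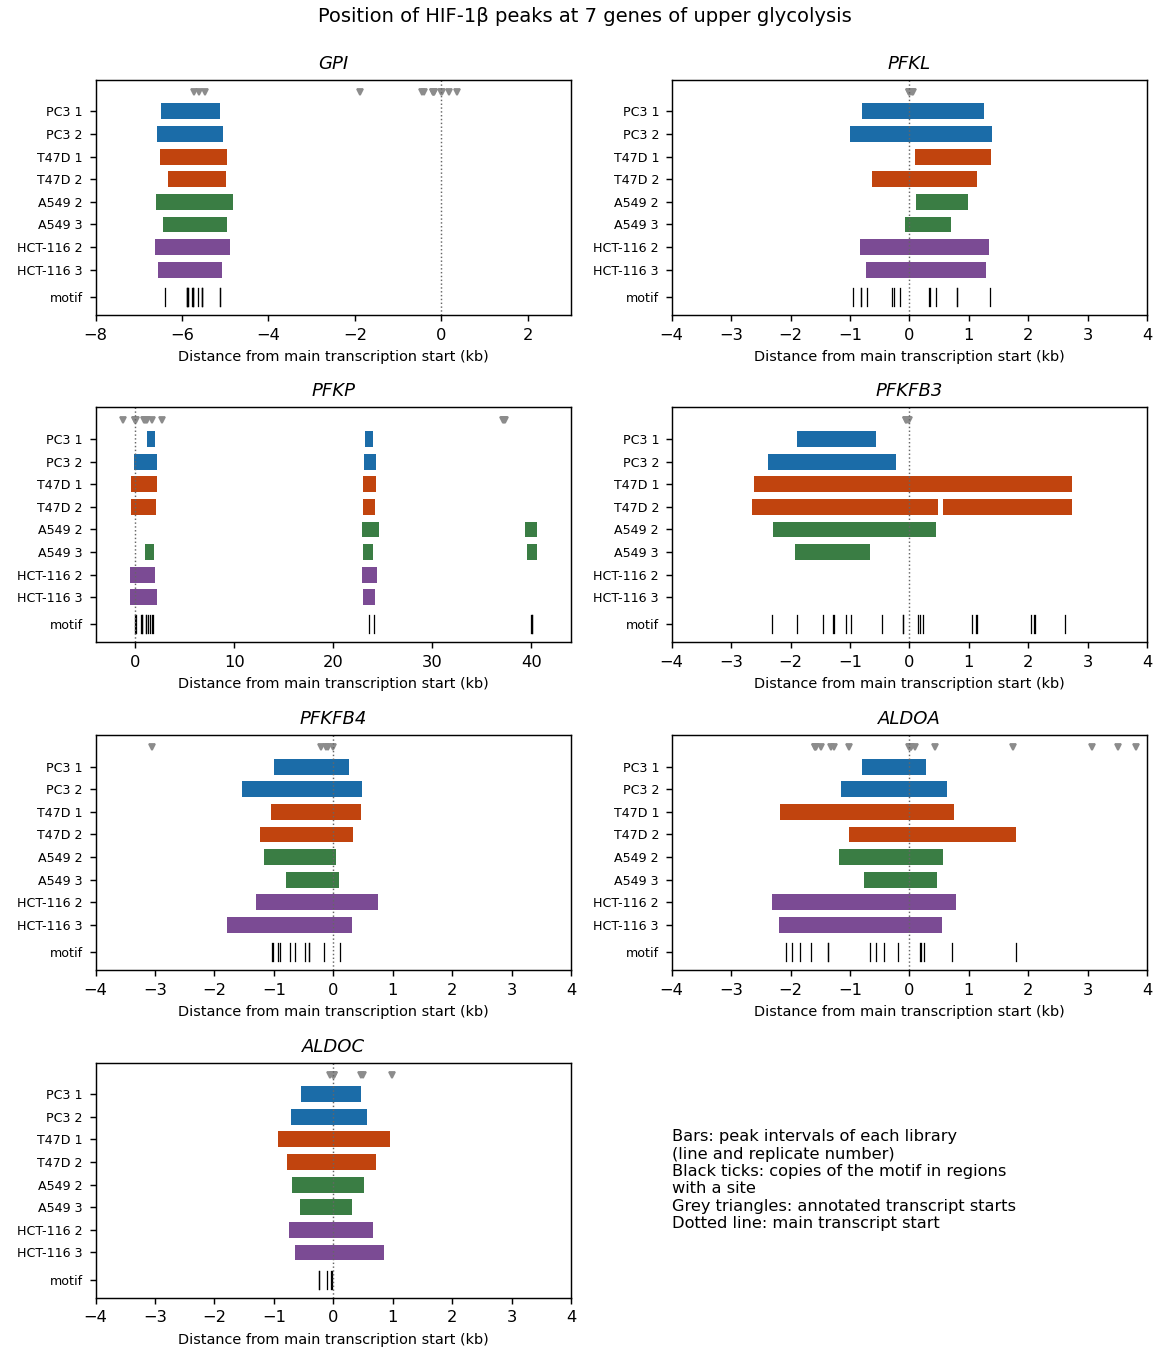
Peak intervals at 7 genes (regions further from the start of GPI, PFKL and PFKFB3 fall outside the panels), with 1 row per library, distance from the main transcription start in kb on the horizontal axis, black ticks for copies of the core in regions with a site and grey triangles for annotated starts. Peaks at PFKL, PFKFB3, PFKFB4, ALDOA and ALDOC covered or flanked the main start, GPI peaks stood at other GPI starts 5718 bp upstream of it, and PFKP had 3 groups of peaks.

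The 2 regulators were both bound at their starts but differed in which lines were bound. PFKFB4 had 1 region, chr3:48593489-48596024 on the minus strand gene, which covered the main start with its middle 520 bp upstream. Its peaks ranked 24 and 29 in PC3, 11 and 14 in T47D, 85 and 69 in A549, and 1 and 16 in HCT-116 cells, where the rank of 1 was shared by 13 peaks. The rank shares were 2.3% and 1% in PC3, 0.359% and 0.481% in T47D, 4.81% and 5.43% in A549, and 0.0264% and 0.836% in HCT-116 cells. Both A549 libraries lay apart from the other 6 at weaker ranks, both PC3 libraries came next, and T47D and HCT-116 cells overlapped. The region held 11 copies of the core, and 19.3% of windows of its length had as many or more.

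PFKFB3 was bound at its main start in 3 lines, in chr10:6242250-6247625. Both T47D replicates and A549 replicate 2 had peaks that covered the start. The PC3 peaks ended upstream of it, at -571 bp in replicate 1 and -232 bp in replicate 2, as did the peak of A549 replicate 3, at -669 bp. Peaks ranked 51 and 33 in PC3, 23 and 19 in T47D, and 137 and 27 in A549 cells. The T47D peaks were the widest, at 5342 bp in replicate 1 and at 3122 bp in replicate 2, where a second peak ranked 546 followed it. HCT-116 cells had no peak in that region in either replicate, although replicate 2 had the longest list of all. Their single peak in the window was in replicate 2, 38898 bp upstream of the main start and ranked 2781 of 3790. It lay within the gene and covered 1 other annotated PFKFB3 start, 201 bp from its middle. The rank shares were 4.89% and 1.14% in PC3, 0.751% and 0.653% in T47D, and 7.75% and 2.13% in A549, so T47D cells stood apart at the strongest shares while PC3 and A549 cells overlapped. The region held 20 copies of the core, a number that 10.2% of windows of its length reached.

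Downstream of PFKFB3, A549 cells had 2 further sites inside the lncRNA LINC02649. The site 72463 bp past the main start had ranks of 802 and 777, and the site 76694 bp past it had ranks of 121 and 157, with a weak PC3 peak ranked 2120 in replicate 2 at the latter. In A549 replicate 2 the peak at this latter site outranked the one at the start. Outside the 25 kb window, a region began 44101 bp past the end of the gene, 96425 bp from the main start at its PC3 replicate 2 peak, where HCT-116 peaks ranked 98 and 93, A549 peaks 49 and 43, and PC3 peaks 109 and 236. T47D peaks nearby, at 94429 and 94804 bp, ranked 646 and 2601 and did not overlap it. In HCT-116 cells the nearest strong binding to PFKFB3 was thus this distal region, which lies beyond the window by which peaks were assigned. PFKFB3 was the protein-coding gene whose start was nearest to each of these regions.

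**Figure D3:**
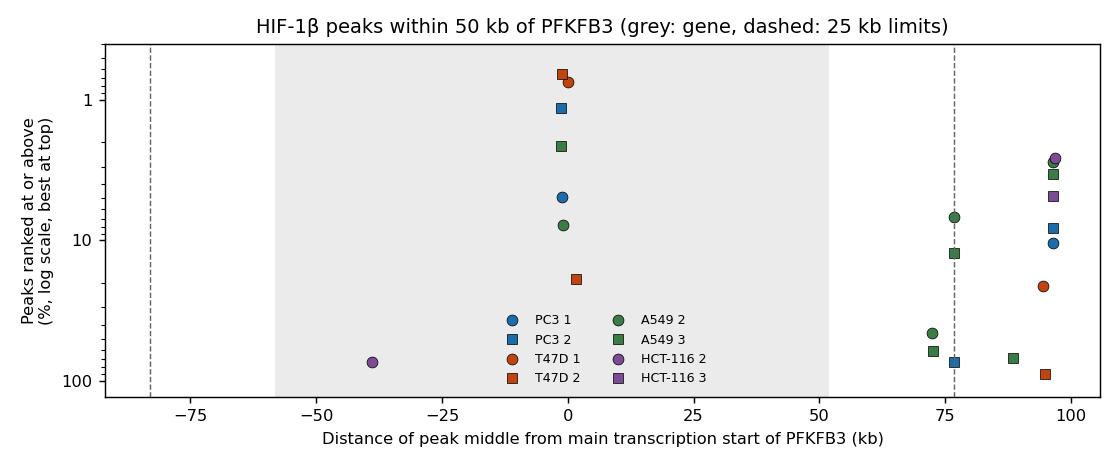
HIF-1β peaks within 50 kb of PFKFB3, with distance from its main start in kb on the horizontal axis and rank share in percent on an inverted log scale, 1 symbol per library. The grey area is the gene and the dashed lines are the 25 kb limits. Peaks of PC3, T47D and A549 cells stood at the start, and both HCT-116 libraries had a strong peak only at 96449 to 96887 bp.

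Both aldolase genes were bound at the start in all 4 lines, ALDOA strongly everywhere and ALDOC strongly in T47D and HCT-116 cells. ALDOA peaks ranked 21 and 16 in PC3, 9 and 9 in T47D, 21 and 16 in A549, and 26 and 39 in HCT-116 cells. As rank shares these were 2.02% and 0.553% in PC3, 0.294% and 0.309% in T47D, 1.19% and 1.26% in A549, and 0.686% and 2.04% in HCT-116 cells. T47D cells held the strongest ranks with no overlap, and the other 3 lines overlapped. The region, chr16:30074771-30078868, had its middle 262 bp upstream of the main start, covered 15 annotated ALDOA starts and overlapped the coding gene ENSG00000285043, from which its peaks cannot be told apart. It held 15 copies of the core, and 17.1% of windows of its length had as many or more.

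ALDOC peaks ranked 298 and 945 in PC3, 77 and 102 in T47D, 932 and 757 in A549, and 129 and 98 in HCT-116 cells. The rank shares were 28.6% and 32.7% in PC3, 2.52% and 3.51% in T47D, 52.7% and 59.6% in A549, and 3.4% and 5.12% in HCT-116 cells. The 4 libraries of T47D and HCT-116 cells did not overlap the 4 of PC3 and A549 cells, and replicates lay close together in each line. The region, chr17:26902966-26904835, had its middle 12 bp from the main start, in exon 1, and also overlapped RSKR and SPAG5. It held 5 copies of the core, a number that 56.8% of windows of its length reached, and all 5 lay between positions -238 and -26 relative to the main start.

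Regions at a start of their gene held more G and C than those away from any start of a coding gene, which is given with no test. The G and C content was 67.5% at PFKL, 68.4% at the start of PFKP, 61.7% at that of PFKFB3, 58.1% at PFKFB4, 62.5% at ALDOA and 55.3% at ALDOC, and it was 56.4% at the upstream starts of GPI. It was 47.2% in intron 2 and 53% in intron 8 of PFKP, and 50.6% and 43.8% at the A549 sites beyond PFKFB3. The latter region had 1 copy of the core followed by CACAG at the spacing searched, as 7.01% of windows of its length did.

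Sites were defined by overlap of the 2 replicates, so some closeness of their peaks was built in. Over the 34 sites, the middles of the peaks of the 2 replicates were a median of 85 bp apart (at most 1144 bp), and the bases in both peaks were a median of 76% of the bases in either. Over all 5833 sites of the 4 lines the medians were 78 bp and 81.2%. The largest offset was that of PFKFB3 in T47D, where replicate 2 had its peak divided.

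Whether the best rank at a gene differed between lines by more than between replicates was tested for the 1250 protein-coding genes with a peak in at least 6 libraries, by setting the mean difference in log10 rank share within lines against that in every other division of the libraries into pairs (one-sided exact permutation test, smallest possible p = 0.0095). The best rank was that of the strongest peak anywhere in the window, so libraries could be compared at different regions. At PFKFB3 it came from the site 76694 bp downstream in A549 replicate 2 and the peak 38898 bp upstream in HCT-116 replicate 2. At PFKP it came from intron 2 in both A549 libraries and from the region near the start in the other lines. After Benjamini-Hochberg adjustment over the 1250 genes, the exact test called 0 genes, and the smallest adjusted p was 0.11. Without adjustment, 444 genes, 35.5% of those tested, had p of at most 0.05, as did 3 of the 7 genes described here that were tested, a share near that background. The 35.5% is well above the share of about 0.05 awaited if lines made no difference. Since the exact test gives no p below 0.0095, the 0 calls after adjustment do not show that lines were alike. ALDOC had p = 0.029 in the exact permutation test (adjusted p = 0.12), with a mean within-line difference of 0.108 in log10 rank share against 0.687 over all divisions. PFKFB3 and PFKFB4 each had p = 0.048 in the exact permutation test (adjusted p = 0.13), PFKP 0.14 (0.23), ALDOA 0.2 (0.28), PFKL 0.24 (0.31) and GPI 0.37 (0.43). GPI ranked 1 or 2 in every library, so its rank shares mainly followed list length and the test could not show whether lines differed there. The separation of lines at ALDOC was thus larger than the replicate spread in size but did not pass the adjusted threshold, and neighbouring genes share peaks, so the 1250 tests are not independent. With 1 library left out, its line had no replicate difference to enter the test. Counts of the 7 genes from those settings are therefore not set against the background.

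The 8 genes kept much of their order from library to library. GPI ranked first in all 8 (level with PFKFB4 in HCT-116 replicate 2), ALDOA second in the 6 libraries of PC3, T47D and A549 cells, and PFKFB4 second in both of HCT-116 cells. GPI and ALDOA had a peak among the top 5% in each of the 8 libraries, so 2 of the 8 genes did, against 0.238% of all protein-coding genes. Of 13 other glycolysis genes, 6 did as well, so this was not particular to the 8 genes. Among the genes with a peak in the library, PFKP or ALDOC came last in PC3, T47D and A549 cells, and PFKFB3 or PFKP in HCT-116 cells. PFKM had no peak in any library and PFKFB3 none in HCT-116 replicate 3, so they were not ordered there.

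Among other genes of the pathway, 10 of 13 glycolysis genes had a site in all 4 lines. The counts in single lines were 11 in PC3, 12 in T47D, 11 in A549 and 12 in HCT-116 cells. HK3, a hexokinase of restricted expression, had none in any line. HK1, a widely expressed hexokinase, lacked one in A549 cells and ENO2, the neuronal enolase, in PC3 cells. Of the family members PFKFB1 and PFKFB2, only PFKFB2 had a site, in PC3, A549 and HCT-116 cells, and its middle was at least 32996 bp from the start. FBP1, FBP2 and TIGAR, which act against the phosphofructokinase step, had no site in any line, although TIGAR had a peak in HCT-116 replicate 2 at a rank share of 77.9%. These lists were chosen with results of the data known.

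**Figure D4:**
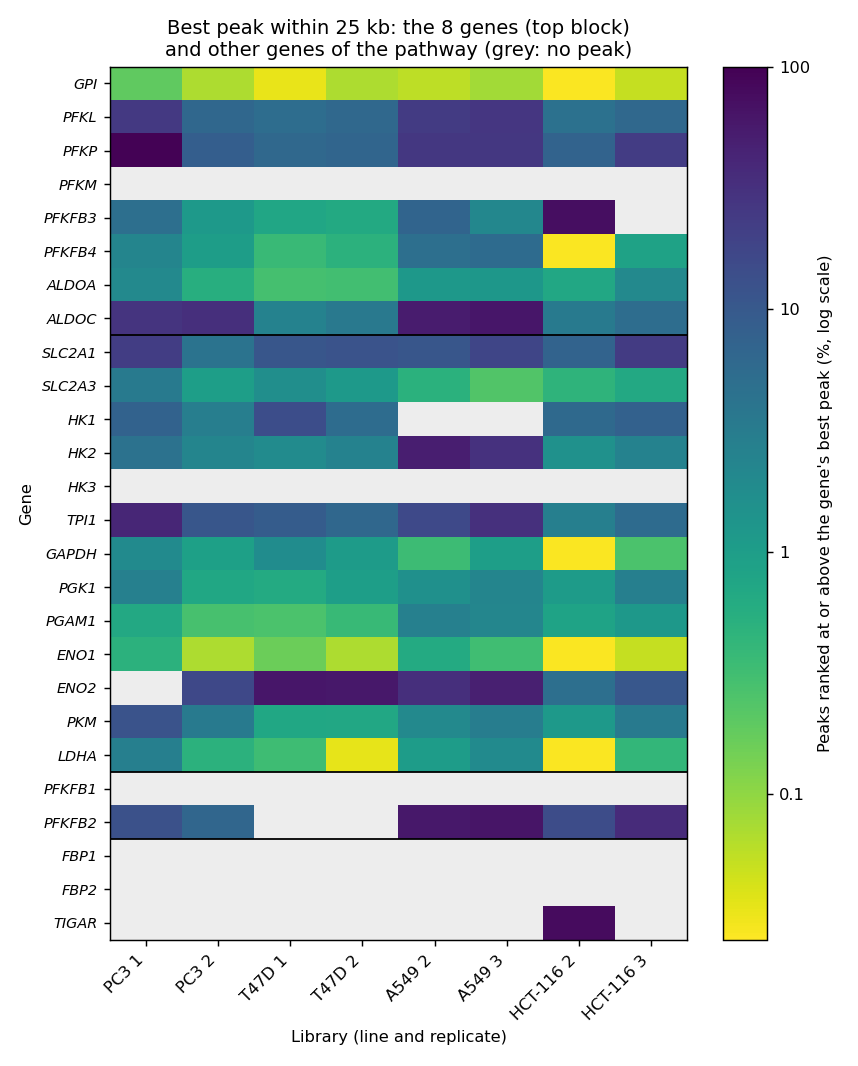
Rank share of the strongest peak within 25 kb (percent, log colour scale, yellow strongest, grey for no peak) for the 8 genes in the top block and the other glycolysis genes, family members and opposing enzymes in the blocks under it, 1 column per library. Rows for PFKM, HK3, PFKFB1, FBP1 and FBP2 are grey throughout.

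The genes most like each of the 7 in rank share over the 8 libraries, among those tested that shared no peak with it, were named by the smallest mean absolute difference in log10 rank share. For GPI these were ENO1, which encodes enolase (a mean 2.2-fold difference in rank share), and ANKRD37 (2.41-fold). For PFKFB4 they were AK4, an adenylate kinase (1.65-fold), and EGLN3, an oxygen-sensing prolyl hydroxylase (1.73-fold). For PFKFB3 they were NDRG1 and CCN4, neighbours with the same value (2.37-fold), and for ALDOA CSNK1D and CCDC57 (1.37-fold). For ALDOC GUK1 was named (1.42-fold), for PFKL MYD88 and OXSR1 (1.21-fold), and for PFKP CAPRIN1 and NAT10 (1.3-fold). CSNK1D and CCDC57 had identical values in each library, as did CAPRIN1 and NAT10, and NDRG1 and CCN4. The genes of these pairs are thus not separate matches. MYD88 and OXSR1 had the same fold difference from PFKL and may not be separate matches either.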

How the data were processed

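HIF-1β was profiled by ChIP-seq with 2 libraries of each cell line. Per the labels and the study's methods, reads were trimmed with Trim Galore 0.3.3 and aligned to GRCh37 (hg19) with BWA 0.7.5a-r405, SAMtools 0.1.19, Picard 1.106 and bedtools 2.17.0 are also named, and peaks were called with MACS (version not given in the sources used here). The methods name T-PIC as another caller, and whether it filtered these lists was not checked. The deposited lists give an interval and a score for each peak, and the authors state no unit for the score. Lists hold no reads, so depth is unknown.

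Peaks were ranked by score within each library, with ties sharing the better rank. A peak middle is that of its interval. Regions were made by merging overlapping peaks at a gene, and the printed sequences used the best-scoring peak of each library. In the rank test a library without a peak was given a rank share of 100%. The 8 genes, the pathway lists and the rules were chosen with earlier results of these data known, so no p-value was adjusted over the members alone. Of the rest of the pathway, genes without a site were named, and HK1, ENO2, PFKFB2 and the TIGAR peak were picked out after their values were seen. Some genes under these rules are not reported here. Alternatives were a 50% reciprocal overlap, a peak of either replicate, the higher-scoring 50% of peaks, other windows, other scales of rank, other gene filters, the central 200 bp of regions, any annotated start, and each library left out. The overlap and the test were tested on simulated data. Python 3.11.15, NumPy 2.4.6, pysam 0.24.0, samtools 1.23.1, Matplotlib 3.10.9 and GENCODE 44 lifted to GRCh37 were used.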

Additional observations from a re-analysis of the deposited data

How the results depend on the processing

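The number of the 8 genes with a site kept within 1.5 times its value in all 46 alternatives. With a peak of either replicate, a 50 kb window or 1 library left out, it could hardly fall and could not exceed 8. Those alternatives were thus bound to stay within that limit and show nothing about stability. PFKFB3 gained a site in HCT-116 cells with a peak of either replicate, a 50 kb window or without HCT-116 replicate 3, and with the higher-scoring 50% of peaks PFKP lost its site in PC3 cells and ALDOC in A549 cells, which left 4 genes with a site in all 4 lines. No gene of those tested passed the adjusted threshold of the rank test in any alternative, and the adjusted p-values of the 7 genes stayed above 0.05 in all 90. With a smallest possible p of 0.0095 in the exact permutation test, adjustment can reach 0.05 only if many genes sit at that p. This outcome was thus likely beforehand and shows little about stability. Genes at an unadjusted p of at most 0.05 numbered 294 with a 10 kb window (860 tested) and 167 among the 502 genes with a peak in all 8 libraries, where fewer genes were tested. They numbered 140 to 280 with 1 library left out, which lowers both the genes tested and the pairs. With log10 rank not divided by the number of peaks, chosen after the data were seen, they numbered 548, and 4 of the 7 genes (PFKL, PFKFB3, PFKFB4 and ALDOA, but not ALDOC) were among them. In their central 200 bp, 5 of the 7 printed regions held a copy of the core, near the 65.7% of all regions that did, and 26 of the 34 sites lay within 2 kb of any annotated start of the gene, against 38% of all pairs of a gene and a site. No paired analysis was possible because the rank test compares all 4 lines at once and these share replicate number 2 alone. PC3 and T47D share numbers 1 and 2 and A549 and HCT-116 numbers 2 and 3, but no test between single lines was made. Depth is unknown, so absence of a peak says only that none passed the score limit.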
